A study of Mus musculus with 6 samples.

Results

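The 98 genes described here encode the nuclear part of the mitochondrial respiratory chain and of ATP synthase in the mouse. They were chosen by symbol: the protein-coding genes whose names begin with Nduf, Sdhaf, Uqcr, Cox4 to Cox8 or Atp5, together with Sdha, Sdhb, Sdhc, Sdhd, Cyc1 and Cycs, with Atp5g1 left out. They are 98 of the 52636 genes in the files, and 94 of them were among the 15816 genes with enough reads to be tested. Complex I and its Ndufaf assembly factors gave 44 of them, complex II and its Sdhaf factors 8, complex III with cytochrome c 10, complex IV 20 and complex V, the ATP synthase, 16. Another 13 genes fit the names but are not annotated as protein-coding, and they were left out.

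The respiratory chain passes electrons from NADH (complex I) and succinate (complex II) through coenzyme Q, complex III and cytochrome c to oxygen at complex IV, pumping protons out of the mitochondrial matrix. Complex V lets the protons back in and makes ATP. Most subunits are encoded in the nucleus and a few in mitochondrial DNA, so each complex except complex II is built from the products of both genomes.

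RNA was sequenced from 3 libraries of enhancer cluster knockout (KO) cells and 3 libraries of wild-type (WT) cells. Both groups were cells of E14, an embryonic stem cell line of the mouse, and both had been differentiated with 5 µM retinoic acid for 4 days (the labels write the unit as µm) after LIF and the inhibitors of MEK and GSK3 were withdrawn. The KO cells lack an enhancer cluster that the series title ties to HoxB genes, and the WT cells carry no stated change. The sources used here gave neither the deleted interval nor the number of KO clones, and separate cultures were not described beyond the design text's term biological replicates, so p-values measure the spread between these libraries.

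Total gene counts were 7780368 to 8521902 in the KO libraries and 8208615 to 9472916 in the WT libraries, and levels are given as CPM, counts scaled to the library total after TMM scaling. Across all genes 68.6% of those tested changed (edgeR's quasi-likelihood test, Benjamini-Hochberg adjusted p under 0.05), 34.5% higher and 34.0% lower in KO, so a passing test was the common outcome. The design text calls the cells NPC, which it does not spell out and which was read here as neural progenitor cells. Of the neural progenitor markers Sox1 was at 1.25 to 2.46 CPM in KO and 1.42 to 2.45 CPM in WT, Fabp7 was at 0 in all 6 libraries, and the summed level of the 8 markers was 124 to 133 CPM in KO and 460 to 484 CPM in WT. Of the 7 tested, 5 were lower, 1 was higher (Pax6, log2 fold change 1.16) and Sox1 did not pass. The 10 endoderm markers summed to 4911 to 5036 CPM in KO and 1670 to 1686 CPM in WT, the 8 mesoderm and fibroblast markers to 459 to 475 CPM in KO and 1585 to 1593 CPM in WT, and the 8 naive pluripotency markers to 882 to 908 CPM in KO and 1066 to 1098 CPM in WT. The calls within these lists were 7 higher and 1 lower of 10 tested for endoderm and 1 higher and 4 lower of 5 for mesoderm and fibroblast. The naive list was split, with 3 higher (Klf4, Tfcp2l1 and Pou5f1) and 3 lower (Nanog, Zfp42 and Esrrb) of 7, so its lower sum was not shared by all of its markers. The part of these markers in the results below was not tested. In such bulk samples, fewer cells of a type and less RNA per cell cannot be told apart.

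KO replicate 1 stood apart from the other libraries. Genes known to collect reads of ribosomal RNA, Gm42418 among them, held 1.04% of its counts and 0.0726 to 0.118% in the other 5, and its counts differed from KO replicates 2 and 3 by a chi-square per degree of freedom of 5.88 and 7.07, against 2.40 between those 2 and 1.90 to 2.04 between WT libraries. Without it, 21 members were higher and 44 lower, with a median log2 fold change of -0.18, against 23, 42 and -0.13 with it.

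Of the 94 members tested, 23 were higher in KO, 42 were lower and 29 did not pass the test. The share called, 69.1%, was near the 68.6% of all genes tested. The split between directions was less even: 24.5% of the members were higher and 44.7% lower, beside 34.5% and 34.0% of all genes. The groups did not overlap in 22 members that were higher in KO and 43 that were lower, while over all genes 35.5% did not overlap on the higher side and 35.4% on the lower side. The changes were mostly small. The median log2 fold change, KO over WT, was -0.13 over the members and 0.0091 over all genes, and the median size of the change regardless of sign was 0.30 over the members and 0.49 over all genes. Only 7 members, 7.45% of those tested, passed the test with a change of at least 1 on the log2 scale, against 21.0% of all genes. These 7 include Cox6a2, Ndufa4l2 and Uqcrc1, whose value stands on 1 library (88, 1342 and 15 counts in KO libraries). Of the 94 tested, Cox6a2 and Ndufa4l2 passed the filter on low counts through their KO libraries only, so their calls are not read as support, and 0 passed it through WT libraries only.

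Together the 98 members made up 8220, 8251 and 7937 CPM in the KO libraries, against 8863, 8820 and 8746 CPM in the WT libraries. Every KO library lay below every WT library, with means of 8136 ± 173 CPM in KO and 8809 ± 59.1 CPM in WT (SD, n = 3 each). Complex V held the largest part of that sum, with 3509 ± 38.7 CPM in KO and 3824 ± 2.72 CPM in WT.

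**Figure D1:**
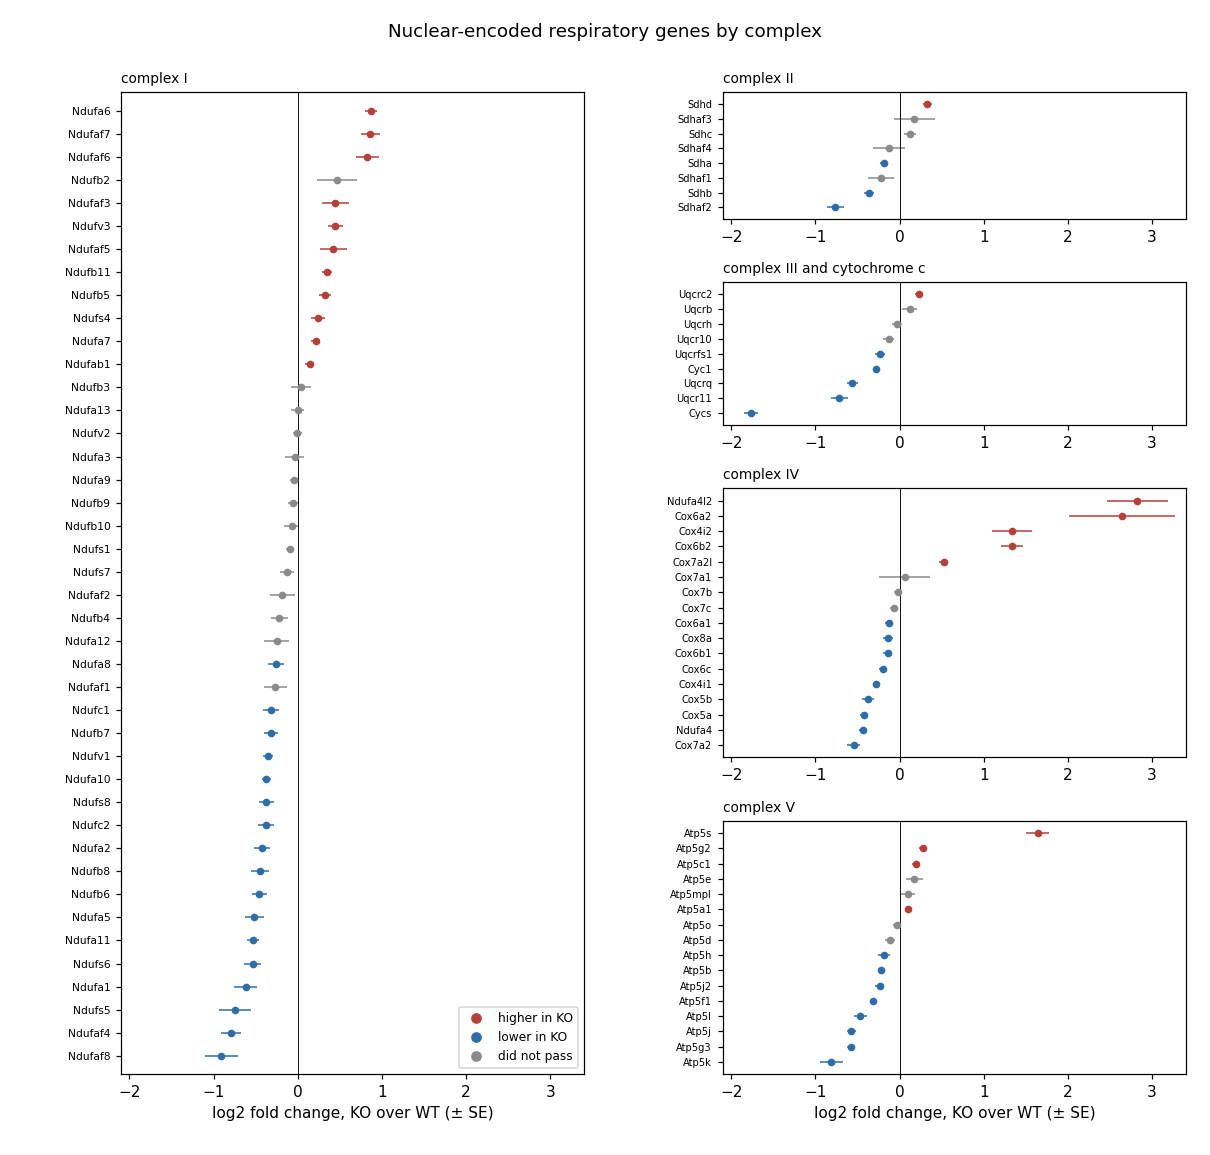
Log2 fold change, KO over WT, with its SE (bars) for 92 of the 94 members tested, 1 panel per complex, coloured by whether the gene was higher in KO, lower in KO or did not pass the test. Uqcrc1, whose KO libraries run from 1.76 to 167 CPM, is not among those drawn. Most points lie between -1 and 1, with Cycs at -1.77 as the lowest, and Ndufa4l2, Cox6a2, Cox4i2, Cox6b2 and Atp5s beyond 1.

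By complex, the median log2 fold change of the tested members lay below 0 in all 5, at -0.12 for complex I, -0.16 for complex II, -0.18 for complex III with cytochrome c, -0.13 for complex IV and -0.15 for complex V. In complex I, 11 members were higher and 17 lower of 43 tested. In complex II, 1 was higher and 3 lower of 8, and in complex III with cytochrome c 2 were higher and 5 lower of 10. In complex IV, 5 were higher and 9 lower of 17, and in complex V 4 were higher and 8 lower of 16. As shares of those tested, 39.5%, 37.5%, 50%, 52.9% and 50% were lower in complexes I to V. The higher shares were 25.6%, 12.5%, 20%, 29.4% and 25%. Over all genes 34.0% were lower and 34.5% higher, so the lower shares of complexes I and II were near that of all genes. Counts in the lists below are to be read beside the same shares of all genes. The higher count and the median of complex IV include Cox6a2 and Ndufa4l2, which passed the filter through KO libraries only. Their calls are not read as support. These medians rest on small changes: without KO replicate 1 those of complexes I, II, III and V were -0.21, -0.21, -0.21 and -0.19, without KO replicate 3 that of complex IV was -0.056, and without WT replicate 2 that of complex V was -0.096. When genes whose exons overlap a gene on the other strand were left out, the medians were -0.28 for complex I, -0.28 for complex III, -0.06 for complex V and 0.10 for complex II, which turned the sign of the last. There were 32 such members, and without a stated strand setting their reads and those of the partner gene cannot be told apart where exons overlap.

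Per kilobase of the principal transcript, the scale on which levels of different genes can be set side by side, Atp5b was the most abundant member in both groups, at 660 CPM per kb in KO and 768 CPM per kb in WT. It encodes the catalytic β subunit of ATP synthase. Cox4i1 followed with 396 CPM per kb in KO and 479 CPM per kb in WT, then Cox6a1 with 337 CPM per kb in KO and 368 CPM per kb in WT. The highest member was Ndufa7 in complex I (194 CPM per kb in KO, 168 CPM per kb in WT), Sdhd in complex II (90.8 CPM per kb in KO, 72.2 CPM per kb in WT) and Uqcrh in complex III (126 CPM per kb in KO, 128 CPM per kb in WT). The medians per kb were 36.3 in KO and 48.1 in WT for complex I, 15.7 in KO and 16.7 in WT for complex II, 70.9 in KO and 84.1 in WT for complex III with cytochrome c, 101 in KO and 103 in WT for complex IV, and 102 in KO and 127 in WT for complex V. Complexes IV and V thus stood highest and complex II, with its assembly factors, lowest in both groups. The place of complex II rests on those factors, which were at 1.27 to 9.42 CPM per kb in KO. Its subunits Sdhd, Sdha and Sdhb, at 90.8, 70.4 and 52.4 CPM per kb in KO, lay above the complex I median, and Sdhc at 22.0 below it.

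Promoters of nuclear respiratory genes are known for sites of NRF1, a factor that coordinates them. Shown here are 5 promoters picked by hand, which do not tell how common such sites are among the members. The genes are Cycs, the member that fell most, the complex II pair Sdha (lower in KO) and Sdhd (higher), and Atp5g2 (higher). The last is Ndufb4, which did not pass at an adjusted p of 0.0506 by edgeR's quasi-likelihood test (Benjamini-Hochberg). RefSeq windows (build GRCm38.p6, 250 bases before to 50 after the start site) were found for 78 of the 98 members. Printed are 200 bases before to 30 bases after the start, 5′ to 3′ on the gene's strand, which is the minus strand for all 5, with capitals marking the matches described next. They lie at chr6:50566540-50566769 (Cycs), chr13:74350211-74350440 (Sdha), chr9:50603820-50604049 (Sdhd), chr15:102671018-102671247 (Atp5g2) and chr16:37654339-37654568 (Ndufb4).
Cycs: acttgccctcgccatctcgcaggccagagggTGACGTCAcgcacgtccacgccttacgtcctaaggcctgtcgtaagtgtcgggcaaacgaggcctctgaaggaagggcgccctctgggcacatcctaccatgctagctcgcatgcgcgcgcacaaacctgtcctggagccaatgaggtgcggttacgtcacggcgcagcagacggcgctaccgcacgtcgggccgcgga
Sdha: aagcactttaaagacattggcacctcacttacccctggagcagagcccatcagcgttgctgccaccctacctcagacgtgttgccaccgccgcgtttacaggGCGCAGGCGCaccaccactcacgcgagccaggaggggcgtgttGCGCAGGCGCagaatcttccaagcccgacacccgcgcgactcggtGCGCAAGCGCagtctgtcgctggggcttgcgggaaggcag
Sdhd: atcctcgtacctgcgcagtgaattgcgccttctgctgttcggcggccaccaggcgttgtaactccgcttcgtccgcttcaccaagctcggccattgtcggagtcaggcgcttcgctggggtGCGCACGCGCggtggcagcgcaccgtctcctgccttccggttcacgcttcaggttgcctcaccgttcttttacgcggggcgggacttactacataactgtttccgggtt
Atp5g2: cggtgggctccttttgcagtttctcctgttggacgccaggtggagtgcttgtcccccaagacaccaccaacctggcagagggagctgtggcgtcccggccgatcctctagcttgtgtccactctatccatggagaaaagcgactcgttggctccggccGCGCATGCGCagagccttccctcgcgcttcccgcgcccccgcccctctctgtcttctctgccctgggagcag
Ndufb4: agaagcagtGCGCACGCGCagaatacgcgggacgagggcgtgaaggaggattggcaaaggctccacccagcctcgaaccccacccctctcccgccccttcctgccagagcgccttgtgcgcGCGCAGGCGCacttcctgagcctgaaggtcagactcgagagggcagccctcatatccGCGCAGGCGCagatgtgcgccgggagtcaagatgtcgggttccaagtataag

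The capitals in Sdha, Sdhd, Atp5g2 and Ndufb4 are matches to the NRF1 motif, the letters GCGCA and GCGC with any single base between them or the reverse complement, and those in Cycs are the cyclic AMP response element TGACGTCA. Sdha held 3 NRF1 matches, beginning 98, 55 and 10 bases before the start, and Ndufb4 held 3, beginning 191, 79 and 22 bases before it. Sdhd held 1 at 79 bases before the start and Atp5g2 1 at 42 bases before it. Cycs held no exact NRF1 match, and near matches were not searched for. Searched on both strands of the whole windows, the NRF1 motif was present in 21 of 78 members (26.9%) and in 5.19% of the 27025 genes with a window. It was present in 11 of 36 members that were lower in KO, in 6 of 16 that were higher and in 4 of 23 that did not pass. The same letters thus stood in windows of genes of all 3 kinds, in some only after the start, as in Ndufa6. The higher members with a match include Uqcrc1, whose value stands on 1 library. The YY1 motif AAGATGGC was in 12.8% of the members and 3.19% of all genes, the CRE in 6.41% and 2.03%, the ETS motif CCGGAAGT in 6.41% and 4.31%, the ERR motif TCAAGGTCA in 2.56% and 0.466%, and the E-box CACGTG in 5.13% and 8.09%. Matches of different motifs overlapped in 0 member windows. A match is a description of the letters and not of binding.

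Complex I, the NADH dehydrogenase, has a catalytic core, a larger set of accessory subunits and a set of assembly factors that are not part of the finished enzyme. Of the 7 nuclear core genes, 6 were tested, 2 were lower in KO and 0 were higher. Ndufv1, which carries the site that oxidises NADH, had 76.8, 69.0 and 65.6 CPM in the KO libraries, against 89.6, 85.9 and 93.9 CPM in the WT libraries. All KO libraries were below all WT libraries, and the log2 fold change was -0.35 (SE 0.061). Ndufs8, an iron-sulfur subunit that passes electrons on towards coenzyme Q, had 28.0, 30.4 and 29.4 CPM in KO libraries, against 39.6, 37.0 and 37.3 CPM in WT libraries, again without overlap, for a log2 fold change of -0.37 (SE 0.089). Ndufs1, Ndufs7 and Ndufv2, further core genes, did not pass, with log2 fold changes of -0.091, -0.12 and -0.0066.

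Ndufs3, the other core gene (chr2:90894634-90904827, GRCm38), had 0 counts in all 6 libraries. Within 50 kb of it C1qtnf4, Kbtbd4, Gm17661 and Celf1 also had 0 counts in every library, and Ptpmt1 had 1 count in 1 library. The next gene, Mtch2, had 750 to 824 counts in KO libraries and 640 to 688 in WT libraries. The zero thus covered a run of neighbouring genes in both groups, its cause was not tested, and no level of Ndufs3 is read from it.

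The 29 accessory subunits of complex I split, with 7 higher in KO, 13 lower and 9 that did not pass, and a median log2 fold change of -0.22. Ndufa6, an accessory subunit of the LYR family that holds the mitochondrial acyl carrier protein, had 74.5, 74.1 and 70.7 CPM in KO libraries, against 38.3, 40.5 and 41.1 CPM in WT libraries. Its KO values were well above and its groups far apart, with a log2 fold change of 0.87 (SE 0.068) and an adjusted p of 1.78e-11 (Benjamini-Hochberg over edgeR's quasi-likelihood test). Ndufv3 had 40.3, 36.9 and 38.3 CPM in KO libraries, against 27.1, 29.5 and 28.3 CPM in WT libraries, and Ndufb11 had 76.3, 81.2 and 78.9 CPM in KO libraries, against 62.9, 60.8 and 62.8 CPM in WT libraries. Both are accessory subunits whose groups did not overlap, with log2 fold changes of 0.44 (SE 0.089) and 0.34 (SE 0.059). Ndufa7, the most abundant complex I member per kb, was also higher in KO, by 0.21 on the log2 scale (SE 0.051). Of the 7 rises, 2 depended on the setting. Ndufs4 (0.24) lost the call without KO replicate 1 or WT replicate 1, with adjusted p-values of 0.0929 and 0.115 by edgeR's quasi-likelihood test (Benjamini-Hochberg). Ndufab1 (0.14) lost it by DESeq2 (0.0813), with the length trend removed (0.171), and without KO replicate 3, WT replicate 1 or WT replicate 2, at 0.0519 to 0.0859.

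In the other direction Ndufs5 had 5.93, 6.24 and 5.15 CPM in KO libraries, against 11.9, 7.98 and 9.20 CPM in WT libraries, a log2 fold change of -0.75 (SE 0.19). Ndufa1 had 17.1, 12.2 and 13.4 CPM in KO libraries, against 23.4, 23.5 and 18.4 CPM in WT libraries, a log2 fold change of -0.62 (SE 0.14). Ndufs6 had 24.3, 26.2 and 20.8 CPM in KO libraries, against 36.0, 34.4 and 32.9 CPM in WT libraries, a log2 fold change of -0.53 (SE 0.10). All 3 are small accessory subunits, and in each the KO libraries lay below the WT libraries without overlap. The other accessory subunits that fell ranged from -0.53 (Ndufa11) to -0.26 (Ndufa8), and Ndufa8 lost the call without KO replicate 3, with an adjusted p of 0.128 (Benjamini-Hochberg over edgeR's quasi-likelihood test), and without KO replicate 2, at 0.0546.

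The 8 Ndufaf assembly factors held the widest spread of complex I, with 4 higher, 2 lower and 2 that did not pass, and a median size of change of 0.62. Ndufaf7, a methyltransferase that acts in complex I assembly, had 26.5, 30.3 and 28.8 CPM in KO libraries, against 15.5, 15.0 and 16.8 CPM in WT libraries (log2 fold change 0.86, SE 0.11). Ndufaf6 had 18.9, 16.3 and 19.3 CPM in KO libraries, against 10.2, 10.7 and 9.82 CPM in WT libraries (0.83, SE 0.14). Both were higher in every KO library than in any WT library. Ndufaf3 had 12.0, 12.0 and 11.7 CPM in KO libraries, against 9.34, 7.55 and 9.33 CPM in WT libraries (0.45, SE 0.16), and lost the call without WT replicate 2, with an adjusted p of 0.0862 (Benjamini-Hochberg over edgeR's quasi-likelihood test).

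Ndufaf4, which works together with Ndufaf3 in early assembly, moved the other way, with 16.1, 13.9 and 16.3 CPM in KO libraries, against 24.0, 26.5 and 29.6 CPM in WT libraries, a log2 fold change of -0.79 (SE 0.12). Ndufaf8, the partner of the hydroxylase Ndufaf5, had 4.38, 5.37 and 6.09 CPM in KO libraries, against 11.6, 10.0 and 8.22 CPM in WT libraries, a log2 fold change of -0.91 (SE 0.19). Neither gene's groups overlapped. Ndufaf5 itself had a log2 fold change of 0.42 (SE 0.16) and was called higher, but not without KO replicate 1 (adjusted p 0.103), WT replicate 2 (0.0863) or WT replicate 3 (0.0515) by edgeR's quasi-likelihood test (Benjamini-Hochberg), nor with no filter on low counts (0.0514) or by DESeq2 (0.0633). So within these known pairs of factors the fitted directions were opposite.

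Complex II, succinate dehydrogenase, is the complex without a mitochondrially encoded subunit, and it also works in the tricarboxylic acid cycle. Its 2 catalytic subunits fell and 1 of its 2 membrane anchors rose. Sdha, the flavoprotein that oxidises succinate, had 201, 203 and 208 CPM in KO libraries, against 238, 229 and 232 CPM in WT libraries (log2 fold change -0.19, SE 0.042). Sdhb, the iron-sulfur subunit, had 59.0, 58.4 and 62.2 CPM in KO libraries, against 80.2, 75.9 and 74.6 CPM in WT libraries (-0.36, SE 0.061). In both genes all KO libraries lay below all WT libraries.

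Sdhd, an anchor that helps bind coenzyme Q, had 109, 118 and 108 CPM in KO libraries, against 91.3, 90.5 and 84.7 CPM in WT libraries, the reverse order, with a log2 fold change of 0.33 (SE 0.050). The other anchor, Sdhc, did not pass, with 67.5, 75.5 and 66.8 CPM in KO libraries and 69.1, 63.6 and 60.0 CPM in WT libraries. Sdhaf2, which is needed to attach the flavin to Sdha, had 20.7, 24.8 and 23.7 CPM in KO libraries, against 38.8, 37.3 and 41.6 CPM in WT libraries. Its log2 fold change of -0.76 (SE 0.097) was the largest change in complex II by size, and its groups were far apart. Sdhaf1, Sdhaf3 and Sdhaf4 did not pass, and 69.6% of the exon bases of Sdhaf1 overlap a gene on the other strand.

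**Figure D2:**
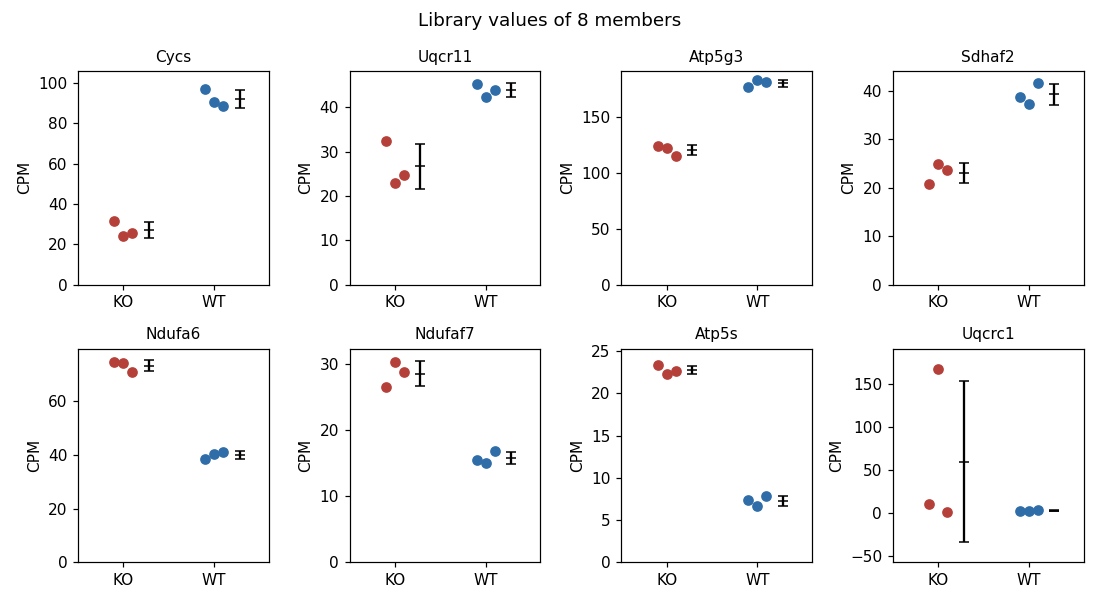
CPM of 8 members in each library (points, KO left of WT), with the mean and SD of the 3 libraries of a group beside them (bars). The KO libraries lie below the WT libraries in Cycs, Uqcr11, Atp5g3 and Sdhaf2 and above them in Ndufa6, Ndufaf7 and Atp5s, while in Uqcrc1 KO replicate 2 at 167 CPM stands alone.

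The largest fall among all members was that of Cycs (ENSMUSG00000063694, chr6:50562563-50566538, minus strand, GRCm38), which encodes cytochrome c, the soluble carrier between complexes III and IV that also triggers caspase activation when it leaves mitochondria. It had 31.7, 24.1 and 25.4 CPM in KO libraries, against 97.1, 90.7 and 88.5 CPM in WT libraries. Every KO library was far below every WT library. The log2 fold change was -1.77 (SE 0.082, 95% interval -1.93 to -1.61), with an adjusted p of 3.46e-16 by edgeR's quasi-likelihood test (Benjamini-Hochberg). Cycs has many processed copies in the genome, and 28.5% of the 50-base words of its transcript were shared with 76 other genes, so part of its reads may have been set aside as not unique in both groups. Its testis form Cyct had 3, 12 and 9 counts in KO libraries, against 7, 9 and 5 counts in WT libraries.

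Among complex III subunits, 2 were higher, 4 lower and 3 did not pass of 9. Uqcr11 had 32.5, 23.0 and 24.7 CPM in KO libraries, against 45.3, 42.2 and 43.9 CPM in WT libraries (log2 fold change -0.72, SE 0.10). Uqcrq had 74.6, 66.0 and 58.7 CPM in KO libraries, against 98.0, 96.0 and 100 CPM in WT libraries (-0.57, SE 0.065). Both are small subunits, and neither showed overlap between the groups. The redox subunits fell by less: cytochrome c1, encoded by Cyc1, had a log2 fold change of -0.28 (SE 0.043) and the Rieske iron-sulfur protein, encoded by Uqcrfs1, one of -0.23 (SE 0.055). Uqcrc2, a core protein with no redox group, had 156, 156 and 154 CPM in KO libraries, against 129, 127 and 140 CPM in WT libraries, and was higher by 0.23 (SE 0.047). Uqcrh, Uqcrb and Uqcr10 did not pass, at -0.03, 0.12 and -0.13.

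Uqcrc1 (chr9:108936633-108949623), the other core protein, gave a value that stands on 1 library. It had 88, 1342 and 15 counts in KO libraries 1 to 3, against 21, 26 and 31 counts in WT libraries 1 to 3. KO replicate 3 was below all WT libraries and KO replicate 2 far above all others, so the groups overlapped. The fitted log2 fold change was 4.31 (SE 0.89) with an adjusted p of 0.000132 by edgeR's quasi-likelihood test (Benjamini-Hochberg), it was 1.10 (adjusted p 0.0259) without KO replicate 2, and limma-voom gave 2.27 with an adjusted p of 0.126. Its neighbours Slc26a6 and Tmem89 were at 0 in all 6 libraries, while Col7a1 had 186 to 197 counts in KO libraries and 388 to 432 in WT libraries. Without Uqcrc1, complex III with cytochrome c held 1 higher and 5 lower of 9, with a median of -0.23, and the members as a whole 22 higher and 42 lower of 93.

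Complex IV, cytochrome c oxidase, has alternative forms of several of its nuclear subunits. Of its 11 common nuclear subunits (Ndufa4 included, which is now placed in complex IV), 9 were lower in KO and 0 higher, and the other 2, Cox7b and Cox7c, had log2 fold changes of -0.02 and -0.06. The fitted change was thus below 0 in 11 of 11, with a median of -0.20. Of the 8 alternative forms, which are mostly made in testis, muscle, lung or under low oxygen, 5 had enough reads to be tested, but Cox6a2 and Ndufa4l2 only through their KO libraries. Of the other 3, Cox4i2 and Cox6b2 were higher and Cox7a1 did not pass.

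Cox7a2 had 45.7, 46.3 and 39.8 CPM in KO libraries, against 64.7, 63.7 and 64.1 CPM in WT libraries (log2 fold change -0.55, SE 0.073). Ndufa4 had 88.5, 85.6 and 82.9 CPM in KO libraries, against 114, 118 and 114 CPM in WT libraries (-0.43, SE 0.047). Cox5a had 95.2, 102 and 97.6 CPM in KO libraries, against 130, 134 and 129 CPM in WT libraries (-0.42, SE 0.047). In these 3, and in Cox4i1, Cox5b, Cox6a1 and Cox6c, every KO library was below every WT library. Cox4i1, the subunit that carries a site regulated by ATP, had 308, 292 and 307 CPM in KO libraries, against 376, 367 and 357 CPM in WT libraries (-0.28, SE 0.040).

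The smallest of the 9 falls were the least certain. Cox6a1, Cox6b1 and Cox8a, at -0.13, -0.14 and -0.14, lost the call under upper-quartile scaling, with adjusted p-values of 0.0673, 0.0629 and 0.115 by edgeR's quasi-likelihood test (Benjamini-Hochberg). Cox6b1 and Cox8a also lost it without KO replicate 3, WT replicate 1 or WT replicate 2, with adjusted p-values of 0.0509 to 0.0881 for Cox6b1 and 0.0545 to 0.331 for Cox8a, and Cox8a lost it by DESeq2 (0.0657). Of the words of Cox7c, 53.0% are shared with other genes.

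Cox4i2, which replaces Cox4i1 in lung and under low oxygen, had 9.79, 6.99 and 9.60 CPM in KO libraries, against 3.90, 2.34 and 4.29 CPM in WT libraries (log2 fold change 1.34, SE 0.23). Cox6b2, the testis form of Cox6b1, had 34.3, 31.1 and 26.4 CPM in KO libraries, against 10.6, 13.2 and 12.4 CPM in WT libraries (1.33, SE 0.13). In both the groups were apart, and the adjusted p was 1.71e-05 for Cox4i2 and 7.25e-10 for Cox6b2 by edgeR's quasi-likelihood test (Benjamini-Hochberg).

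Ndufa4l2, the form of Ndufa4 known to be induced by low oxygen, had 7.09, 8.86 and 4.92 CPM in KO libraries, against 1.66, 0.319 and 0.982 CPM in WT libraries. These are 55, 71 and 42 counts in KO libraries, against 14, 3 and 8 counts in WT libraries, so the fitted log2 fold change of 2.83 (SE 0.36) is given as a description. Cox6a2, the heart and muscle form of Cox6a1, had 13, 11 and 13 counts in KO libraries, against 0, 3 and 3 counts in WT libraries, and its fitted log2 fold change of 2.65 (SE 0.63) likewise rests on few reads. Cox7a1, the heart and muscle form of Cox7a2, had 3.99, 3.24 and 2.69 CPM in KO libraries and 2.72, 4.36 and 2.33 CPM in WT libraries, and the groups overlapped. The testis forms Cox7b2 and Cox8c and the muscle form Cox8b had too few reads to be tested, at or under 0.499 CPM in every library.

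Set against its common partner on the per-kilobase scale, Cox6b2 made up 26.0%, 24.9% and 22.9% of the Cox6b pair in KO libraries, against 9.16%, 11.1% and 11.3% in WT libraries. It was the alternative form that came closest to its partner. Cox4i2 made up 2.93 ± 0.433% of its pair in KO and 0.991 ± 0.297% in WT (SD, n = 3 each). The share of Ndufa4l2 was 5.01 ± 1.30% in KO and 0.559 ± 0.381% in WT. It is given as a description, since Ndufa4l2 passed the filter through KO libraries only. For Cox7a1 the shares were 11.2 ± 1.41% in KO and 7.54 ± 2.42% in WT, and KO replicate 3 at 10.2% lay below WT replicate 2 at 10.3%.

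**Figure D3:**
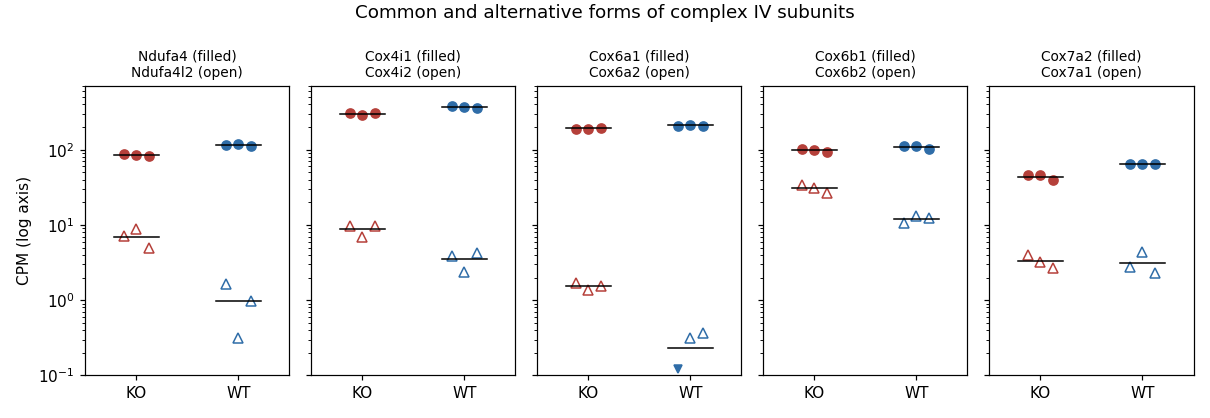
CPM on a log axis of 5 complex IV subunits in the common form (filled circles) and the alternative form (open triangles) in each library, KO left of WT, with the group mean as a line. A filled triangle pointing down at the lower edge marks the WT library in which Cox6a2 had 0 counts. The common forms sit slightly lower in KO, with overlap in Cox6b1, and Ndufa4l2, Cox4i2, Cox6a2 and Cox6b2 sit higher in KO without overlap. Ndufa4l2 and Cox6a2 passed the filter on low counts through KO libraries only, so their separation is not read as support.

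Cox7a2l, a relative of Cox7a2 that joins complexes III and IV into supercomplexes, went against the common subunits. It had 116, 110 and 100 CPM in KO libraries, against 75.4, 78.9 and 72.0 CPM in WT libraries, above them in every library, with a log2 fold change of 0.52 (SE 0.056) and an adjusted p of 7.78e-09 by edgeR's quasi-likelihood test (Benjamini-Hochberg). Some 19.8% of its words are shared with 1 other gene.

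Complex V has an F1 part that makes ATP and a membrane part that carries the proton flow. Here the stalk genes outside F1 were grouped with the membrane genes. Of the 5 F1 genes 2 were higher, 1 was lower and 2 did not pass. Atp5b, the most abundant member, fell by little but evenly, with 1250, 1284 and 1257 CPM in KO libraries, against 1465, 1478 and 1473 CPM in WT libraries (log2 fold change -0.22, SE 0.023), and its groups did not overlap. Atp5c1, the γ subunit that turns in the centre of the enzyme, had 239, 239 and 237 CPM in KO libraries, against 218, 200 and 207 CPM in WT libraries (0.20, SE 0.043). Atp5a1, the α subunit and partner of Atp5b, had 779, 803 and 771 CPM in KO libraries, against 744, 724 and 727 CPM in WT libraries. Its log2 fold change of 0.10 (SE 0.030) was called, except without WT replicate 2, where the adjusted p was 0.0506 (Benjamini-Hochberg over edgeR's quasi-likelihood test). The α and β subunits, present in equal number in the enzyme, thus had fitted changes of opposite sign.

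Of the 10 stalk and membrane genes, 7 were lower, 1 was higher and 2 did not pass, with a median of -0.28. Atp5k, the small membrane subunit e, had 17.8, 12.7 and 12.1 CPM in KO libraries, against 28.7, 22.9 and 22.9 CPM in WT libraries (log2 fold change -0.81, SE 0.14). Atp5j, the coupling factor F6, had 72.9, 73.0 and 74.4 CPM in KO libraries, against 107, 110 and 111 CPM in WT libraries (-0.57, SE 0.050). Neither gene's groups overlapped. The other falls were Atp5g3 (-0.58), Atp5l (-0.47), Atp5f1 (-0.32), Atp5j2 (-0.24) and Atp5h (-0.19). Atp5h lost the call without KO replicate 2 or WT replicate 2, with adjusted p-values of 0.184 and 0.153 by edgeR's quasi-likelihood test (Benjamini-Hochberg), and also under upper-quartile scaling (0.0609) and with the length trend removed (0.103).

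Atp5g2 and Atp5g3 encode precursors that are cut to the same c subunit of the membrane ring. Atp5g3 had 124, 122 and 115 CPM in KO libraries, against 177, 183 and 181 CPM in WT libraries (log2 fold change -0.58, SE 0.046). Atp5g2 had 138, 127 and 134 CPM in KO libraries, against 104, 110 and 114 CPM in WT libraries (0.28, SE 0.049). The groups were apart in both genes and in opposite order. On the per-kilobase scale Atp5g3 made up 47.6%, 49.3% and 46.5% of the pair in KO libraries, against 63.1%, 62.7% and 61.5% in WT libraries. The value of Atp5g2 is uncertain, since 87.4% of its words are shared with 2 other genes.

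Atp5s, which encodes coupling factor B and is not a core part of the enzyme, had the largest rise in complex V. It had 23.3, 22.3 and 22.6 CPM in KO libraries, against 7.33, 6.70 and 7.85 CPM in WT libraries. The groups were far apart, with a log2 fold change of 1.64 (SE 0.14) and an adjusted p of 5.24e-11 by edgeR's quasi-likelihood test (Benjamini-Hochberg). Among ATP synthase genes outside the symbol rule, Usmg5, a small membrane subunit, was lower in KO with a log2 fold change of -0.59 (SE 0.061), and Atpif1, the inhibitor of the enzyme's reverse reaction, was higher with 0.21 (SE 0.046).

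The mitochondrially encoded subunits of the same complexes were mostly higher in KO. Their summed level was 25042 to 27957 CPM in KO and 16363 to 16879 CPM in WT, and of 12 tested 7 were higher and 1 lower, with a median log2 fold change of 0.29. Of the 7 complex I subunits 3 were higher and 0 lower, and all 3 complex IV subunits were higher. Most of the difference in the sum lay in complex IV, at 14786 ± 919 CPM in KO and 5998 ± 109 CPM in WT (SD, n = 3 each). Complex I had 8759 ± 459 CPM in KO and 7642 ± 147 CPM in WT, with a median log2 fold change of 0.10. The 1 tested complex V gene was called higher (0.75) with overlapping groups. The complex V pair summed to 12.8 to 23.2 CPM in KO and 8.16 to 13.0 CPM in WT. The complex III subunit mt-Cytb was the 1 called lower, with a log2 fold change of -0.14 (SE 0.024). Among the complex I subunits, 1 had a larger fitted fall of -0.93, with its KO libraries below its WT libraries, but did not pass the test. In complex I, mt-Nd5 had a log2 fold change of 0.37 (SE 0.034) and mt-Nd2 one of 0.01 (SE 0.025). Nuclear copies of mitochondrial DNA limit these values: mt-Co2, mt-Co3, mt-Atp6, mt-Nd3 and mt-Nd4l share 98.0 to 100% of their words with other genes, and mt-Co1 and mt-Nd4 51.1% and 62.2%. When mitochondrially encoded genes were left out of the scaling, all 94 tested members kept their direction and call.

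Assembly factors outside the symbol rule were called in both directions. Of 10 other complex I assembly factors, 3 were higher and 2 lower. Each of the 2 lower calls was lost without some library: Foxred1 (-0.31) without KO replicate 3 (adjusted p 0.142) or WT replicate 2 (0.0569), and Ecsit (-0.31) without KO replicate 1 (0.0818) or WT replicate 1 (0.0721), by edgeR's quasi-likelihood test (Benjamini-Hochberg). Nubpl, which delivers iron-sulfur clusters, had a log2 fold change of 0.96 (SE 0.16) and Dmac2, a membrane arm factor, one of 0.64 (SE 0.100). Of 22 tested complex IV assembly factors, 5 were higher and 9 lower. Cox17, the copper chaperone, had 13.5, 10.9 and 14.1 CPM in KO libraries, against 4.38, 2.98 and 4.54 CPM in WT libraries (1.70, SE 0.20). Coa7 had 13.7, 14.2 and 15.8 CPM in KO libraries, against 30.9, 36.4 and 36.2 CPM in WT libraries (-1.24, SE 0.11). Both were apart between the groups, in opposite order. Of 6 complex III factors, 1 was higher, Ttc19 with 0.43 (SE 0.089), and 3 lower, among them Uqcc2 with -0.56 (SE 0.11) and Uqcc3 with -0.44 (SE 0.16), which lost the call without KO replicate 3 (adjusted p 0.135) or WT replicate 1 (0.0877) by edgeR's quasi-likelihood test (Benjamini-Hochberg).

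Among genes that serve the chain from outside, the median size of the log2 fold change regardless of sign was 0.60 in coenzyme Q synthesis, 0.57 in the carriers and 0.21 in the tricarboxylic acid cycle, beside 0.30 over the members. Of 13 genes of coenzyme Q synthesis, 6 were higher and 4 lower. Coq8a, a kinase-like protein of that pathway, had 24.7, 26.6 and 24.4 CPM in KO libraries, against 4.61, 6.91 and 5.40 CPM in WT libraries (log2 fold change 2.15, SE 0.15). Coq10b, which binds coenzyme Q, had 12.9, 12.2 and 15.0 CPM in KO libraries, against 35.7, 32.8 and 30.9 CPM in WT libraries (-1.31, SE 0.12). The groups were apart in both genes, in opposite order. Of 13 genes of the tricarboxylic acid cycle, 5 were higher and 6 lower, among them Suclg2 with 1.14 (SE 0.058) and Mdh2 with -1.05 (SE 0.042). Of 6 carriers of adenine nucleotides, phosphate and aspartate, 1 was higher and 3 lower. Slc25a4 and Slc25a5, which exchange ADP for the ATP that complex V makes, had log2 fold changes of -0.95 (SE 0.044) and -0.89 (SE 0.044).

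Of 15 tested transcription regulators of respiratory genes, 4 were higher and 6 lower, with fitted log2 fold changes from -4.38 to 3.93. For this and the other lists outside the members, passage of the filter through a single group was not checked. The extremes are therefore given as a description only. Pprc1, a coactivator of NRF1, had 115, 113 and 106 CPM in KO libraries, against 205, 207 and 200 CPM in WT libraries (log2 fold change -0.87, SE 0.046). Ppargc1b, a related coactivator, had 6.44, 5.62 and 7.50 CPM in KO libraries, against 2.72, 1.49 and 1.23 CPM in WT libraries (1.84, SE 0.29). These relatives moved in opposite directions without overlap between groups. Nrf1 itself had a log2 fold change of -0.55 (SE 0.069) and was called lower.

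**Figure D4:**
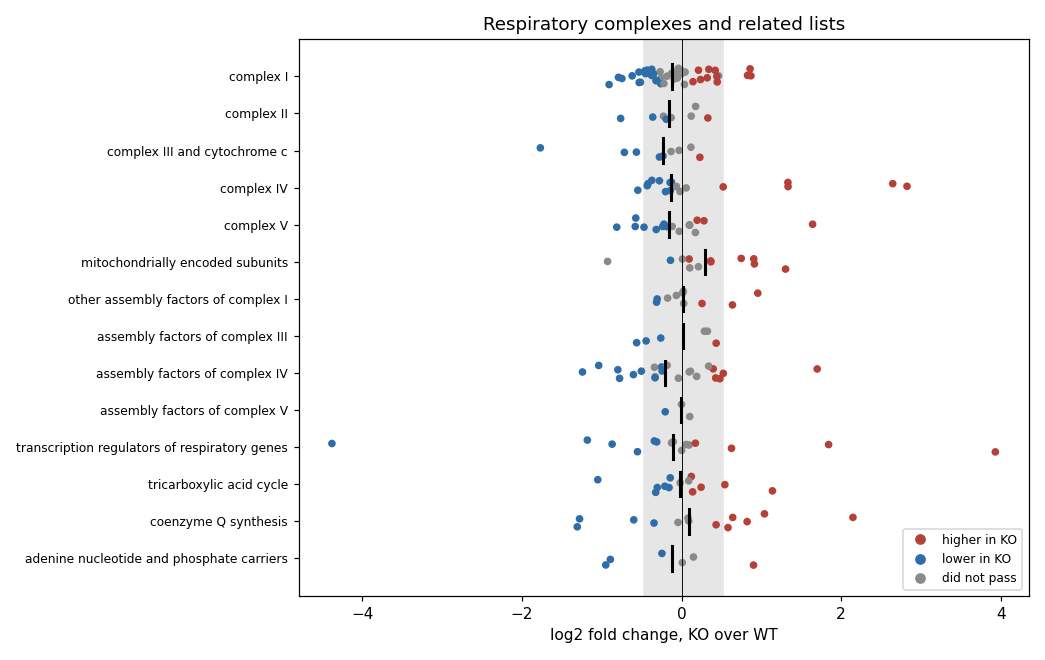
Log2 fold change, KO over WT, of each tested gene (points, coloured by call) in the 5 complexes and in 9 related lists, with the list's median as a black bar. Uqcrc1 is not drawn, and the grey band spans the middle of all genes tested, from the 25th to the 75th percentile (-0.47 to 0.52). The points of complexes I, II and V lie mostly inside the band, and those of coenzyme Q synthesis and the transcription regulators spread wider. Passage of the filter on low counts through a single group was checked for the members only.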

How the data were processed

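For each library the authors deposited a table of raw read counts by Ensembl gene, whole numbers with no normalization, as the values show. The submitters' processing notes name HISAT2 2.1.0, HTSeq 0.9.1 and DESeq2 1.18.1, and the build mm10. Neither annotation release nor strand setting is given in the sources used here. HTSeq's tallies of unassigned reads name no gene and were not used in library sizes or tests. Reads on no feature were 42.9 to 43.5% of a KO library and 42.3 to 42.5% of a WT library. Reads without a unique alignment were 14.4 to 15.0% of a KO library and 13.8% of a WT library.

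The 3 KO and 3 WT libraries were tested with edgeR 4.0.16 (R 4.3.3): filterByExpr (minimum count 10), TMM scaling, no covariate, the quasi-likelihood F test, and Benjamini-Hochberg adjustment across the 15816 genes kept. The procedure was checked on simulated counts in which only a small part of the genes changed. That check does not cover scaling or error control where 68.6% of genes are called, as here. The SE is the log2 fold change divided by the root of F. A level per kb divides CPM by the length of the principal transcript in GENCODE M21 (GRCm38), which also gave symbols, positions and overlaps and matched 52489 of 52636 identifiers. Shared words are 50-base stretches of that transcript found in transcripts of other, non-overlapping genes.

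Named with library values were up to 3 members that rose and 3 that fell most in each complex (complex I in 3 parts), every isoform pair and the most abundant member of each complex, and up to 2 genes per direction from each other list. The members and all lists were chosen with earlier results of these data known. Alternatives were RLE and upper-quartile scaling, DESeq2 1.42.0, limma-voom (limma 3.58.1), other filters, a replicate block, removal of a length trend, leaving out mitochondrial genes, genes overlapping the other strand or each library, and, added after seeing the data, leaving out 3 members that share over 50% of their words. The values of 1 tested member are not reported here or drawn by name.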

Additional observations from a re-analysis of the deposited data

How the results depend on the processing

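Of the 65 members called, 54 kept direction and call under every alternative run. The other 11 lost the call under at least 1, 9 of them when a library was left out. Of 1473 member results 0 reversed, where a change of sign in a gene called in neither run was not counted. In 24 results a member that did not pass gained the call. Ndufs1 did so with the length trend removed and Uqcrb without KO replicate 3. Members higher and lower numbered 19 to 25 and 40 to 44 with 1 library left out, 21 and 41 with DESeq2, 22 and 43 with limma-voom, and 24 and 38 with upper-quartile scaling, and 22 and 41 without the 3 members that share over 50% of their words. Leaving out genes that overlap the other strand left 3549 genes higher and 3475 lower and 15 members higher, since fewer genes were tested, and gave median log2 fold changes, KO over WT, of -0.16 for all members, -0.28 for complex I, 0.10 for complex II, -0.28 for complex III and -0.063 for complex V. Upper-quartile scaling gave -0.094 for all members, -0.087 for complex I, -0.12 for complex II and -0.11 for complex V, and removing the length trend gave -0.093 for complex V; the cause was not tested. With 1 library left out the medians ran from -0.18 to -0.11 for all members, -0.21 to -0.090 for complex I, -0.21 to -0.12 for complex II, -0.14 to -0.056 for complex IV and -0.19 to -0.096 for complex V. The depth of 7780368 to 9472916 counts leaves Cox6a2, Cox7b2, Cox8b and Cox8c at under 10 counts in each WT library and Ndufa4l2 at 3 to 14.

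Same-numbered KO and WT libraries did not deviate together, with correlations of 0.01, 0.0049 and -0.01 for numbers 1 to 3. With 3 libraries per group, this check cannot show whether same-numbered libraries shared a culture or preparation. With the replicate number as a block, 5465 genes were higher and 5397 lower, and 23 members were higher and 43 lower.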
